A study of Mus musculus with 6 samples.

Results

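The Fbxw genes of mouse chromosome 9 are a tandem array of genes for proteins with an F-box and WD40 repeats. The 10 described here, Fbxw13, Fbxw14, Fbxw15, Fbxw16, Fbxw18, Fbxw19, Fbxw20, Fbxw21, Fbxw22 and Fbxw24, are 10 of the 25353 genes in the deposited table. They were chosen by gene symbol from a list drawn up with their KO and WT values in view, so the difference between the groups below is a description and carries no test. RNA was measured in 6 libraries of germinal vesicle (GV) oocytes, immature egg cells arrested in meiotic prophase; the collection protocol describes oocytes from secondary follicles. There were 3 KO and 3 WT libraries, each from 5 pooled oocytes of C57BL/6J mice. Different labels name different deleted genes: the study's design text has Mfn2-/- mice, while the genotype field and the protocol have Mfn1-/- mice. Age differs likewise, given as 8 weeks in the text and as P1 in the age field, for both groups. Whether the deletion was made in all cells or only in oocytes is not given in the sources used here, and no label ties the pools to separate mice, so the spread between libraries may be partly technical.

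Mfn1 and Mfn2 encode mitofusins, membrane proteins that fuse the outer membranes of mitochondria. Mfn2 had 5.25, 5.28 and 4.50 normalized read counts in the KO libraries, against 25.5, 38.1 and 32.3 in the WT libraries, and its log2 fold change of -2.44 passed limma's test (SE 0.38, adjusted p = 0.00487). Mfn1 averaged 386 ± 10.3 normalized read counts in KO libraries and 340.4 ± 36.3 in WT libraries (SD, n = 3 each), and did not pass (adjusted p = 0.482). Of these genes only Mfn2, the one in the design text, had lower RNA in the KO libraries. The libraries held 6583404 to 7615374 reads in the KO group and 6450191 to 7992598 reads in the WT group. All 10 oocyte markers used, among them the zona pellucida genes, were present, with a summed level of 114435 to 155779 normalized read counts in KO libraries and 148351 to 175662 in WT libraries.

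F-box proteins are the exchangeable substrate receptors of SCF ubiquitin ligases. The F-box binds the adaptor Skp1, which sits on the scaffold Cul1 beside a RING protein, and the rest of the F-box protein selects the target that will be marked with ubiquitin. In the Fbxw class the target is usually bound by the WD40 repeats, as in the well-known receptors beta-TrCP and Fbw7. Oocytes store large amounts of messenger RNA during growth and stop transcribing when fully grown. In mouse cells Fbxw15 has been linked to the turnover of the histone acetyltransferase Kat7 (HBO1), while no substrate is stated here for the other 9 genes.

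The array holds 15 Fbxw genes in 651 kb of chromosome 9 (GRCm38, 109139447 to 109790670), all on the minus strand, separated by gaps of 12.1 to 38.7 kb. The 5 that were not on the list are Fbxw23, annotated as a pseudogene, Fbxw25, Fbxw26, Fbxw27 and Fbxw28. In GENCODE M21 each of the 10 genes has 10 exons, and the coding length is 1398 bases in 6 of them, 1392 in Fbxw16, 1404 in Fbxw20 and Fbxw21 and 1407 in Fbxw18. Over the 45 pairs of the 10 genes, coding identity ran from 79.3% to 92.6% with a median of 83.6%. Fbxw14 and Fbxw22 were the closest of these pairs, at 92.6%. Outside the list, Fbxw28 had 99.1% identity with Fbxw14, and Fbxw26 had 90.01% with Fbxw16. Fbxw16 and Fbxw19 had 88.6% of positions alike, and Fbxw13 and Fbxw21 had 87.2%.

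The start of the coding sequence shows how alike the copies are. The first 60 coding bases of 5 genes and the matching 69 of Fbxw18 follow, from GENCODE M21 on GRCm38 chromosome 9, chosen to span the largest and the smallest KO-to-WT differences. Capitals mark bases that differ from the commonest base at that place among the 10 genes, and bases tied for commonest stay in lower case.
Fbxw24: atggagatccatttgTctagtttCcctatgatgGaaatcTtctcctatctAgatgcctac
Fbxw14: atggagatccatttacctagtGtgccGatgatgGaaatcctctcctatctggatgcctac
Fbxw16: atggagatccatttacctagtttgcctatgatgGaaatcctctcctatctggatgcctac
Fbxw18: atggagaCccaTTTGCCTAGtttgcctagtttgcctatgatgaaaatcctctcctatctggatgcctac
Fbxw20: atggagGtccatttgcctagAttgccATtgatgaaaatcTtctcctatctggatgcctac
Fbxw22: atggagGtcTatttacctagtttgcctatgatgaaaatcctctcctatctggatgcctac
At 43 of 60 aligned positions all 10 genes had the same base. The run of 9 capitals in Fbxw18 is a stretch of bases that the other genes lack.

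RefSeq promoter windows (GRCm38.p6, 250 bases before to 50 after the start site) were found for 8 of the 10 genes, all but Fbxw13 and Fbxw22. The 100 bases before the start site are shown for the genes with the largest difference (Fbxw18 and Fbxw14), the most abundant (Fbxw24) and the one with the smallest difference (Fbxw20). All lie on the minus strand and are written 5′ to 3′ as transcribed, and capitals mark a 12-base block found in all 8.
Fbxw24, chr9:109626060-109626159: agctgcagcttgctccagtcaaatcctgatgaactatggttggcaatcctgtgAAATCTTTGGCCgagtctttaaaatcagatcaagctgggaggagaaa
Fbxw14, chr9:109287677-109287776: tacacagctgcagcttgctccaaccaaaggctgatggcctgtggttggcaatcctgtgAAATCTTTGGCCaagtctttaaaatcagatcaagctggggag
Fbxw18, chr9:109702701-109702800: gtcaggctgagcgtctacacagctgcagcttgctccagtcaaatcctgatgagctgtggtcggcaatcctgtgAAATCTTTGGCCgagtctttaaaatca
Fbxw20, chr9:109234755-109234854: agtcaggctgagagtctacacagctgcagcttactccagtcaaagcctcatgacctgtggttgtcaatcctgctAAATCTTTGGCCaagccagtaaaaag
The block AAATCTTTGGCC stood in 8 of 8 of these promoters, in 2 of 4 promoters of the other array genes and in 12 of 27025 RefSeq promoters (0.0444%, both strands). A second block, GACTTAGGCCAC, stood in 8 of 8, in 3 of the 4 others and in 11 of 27025 (0.0407%), none of them outside the array. Both blocks were picked from the genes' own promoters, so their presence there is not a finding.

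Motifs of transcription factors known from oocytes were searched on both strands in the same windows. The E-box CANNTG, the core bound by factors such as FIGLA, was in 8 of 8 promoters and in 72.1% of all promoters. The NOBOX element TAATTG was in 0 of 8 (8.15% of all promoters), and the LHX8 element TGATTG was in 1 of 8, that of Fbxw16 (14.4%). The TATA box TATAAA was in 0 of 8 (14.2%). The related sequence TTTAAA, called TATA-like here, was in 7 of 8, all but Fbxw20, against 13.2% of all promoters. It was also in 3 of 4 promoters of the other array genes. In 5 of 8 it started 40 to 20 bases before the start site, as it did in 1.44% of all promoters. These promoters are alike in sequence, so the matches are not independent. A match describes the letters in these windows and nothing about binding.

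**Figure D1:**
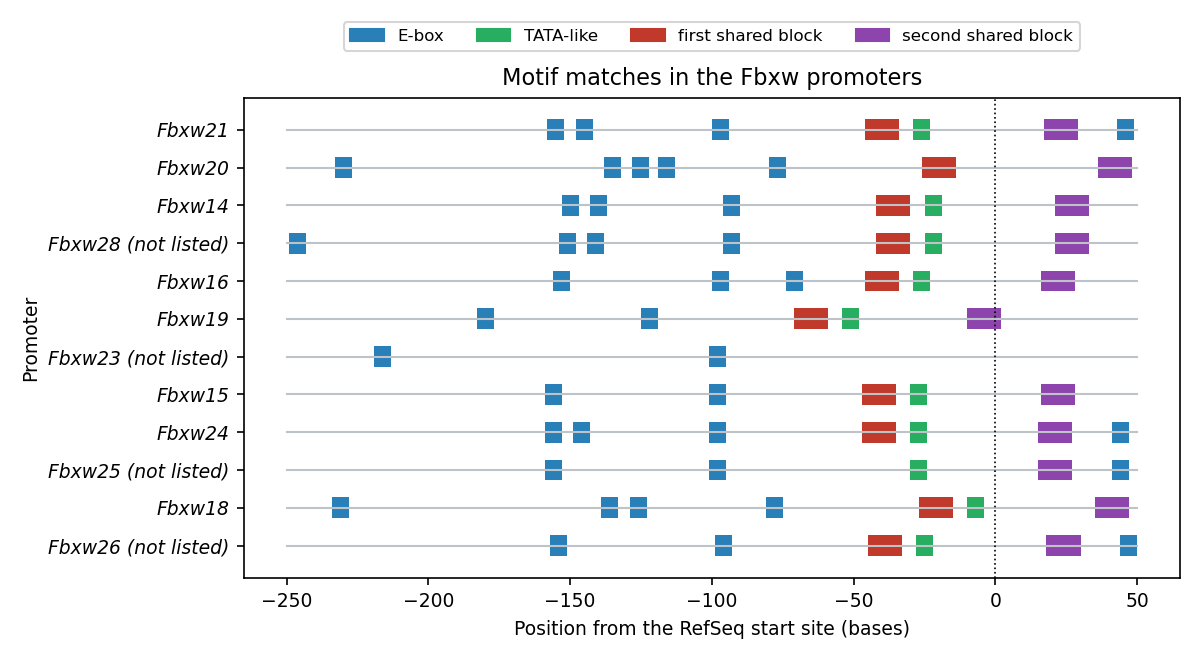
Positions of E-boxes, TATA-like elements and the 2 shared 12-base blocks in the RefSeq promoters of 8 listed Fbxw genes and 4 other array genes, in bases from the start site. Both shared blocks recur in the same order in the 8 listed promoters, and Fbxw20 lacks the TATA-like element.

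Copies this alike can share sequencing reads, and how the submitters treated reads with more than 1 match is not given in the sources used here. Of all 75-base windows of a transcript (the read length), the share that matched another gene's transcript with at most 1 mismatch was 81.4% for Fbxw14. Fbxw28 accounted for most of it, since 77.3% of Fbxw14's windows matched it, and only 18.6% of Fbxw14's windows had no match by this rule. The rule counts windows that differ at 1 base as matches, and takes windows singly while the libraries were read as pairs. The share of reads that cannot be placed was therefore not measured. The share of matched windows was 29.2% for Fbxw16 and between 5.54% (Fbxw18) and 12.8% (Fbxw19) for the other 8. The 100 promoter bases of Fbxw28 (chr9:109339660-109339759) were identical to those of Fbxw14 shown above. The level of Fbxw14 alone is therefore uncertain, and its sum with Fbxw28 is given beside it.

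**Figure D2:**
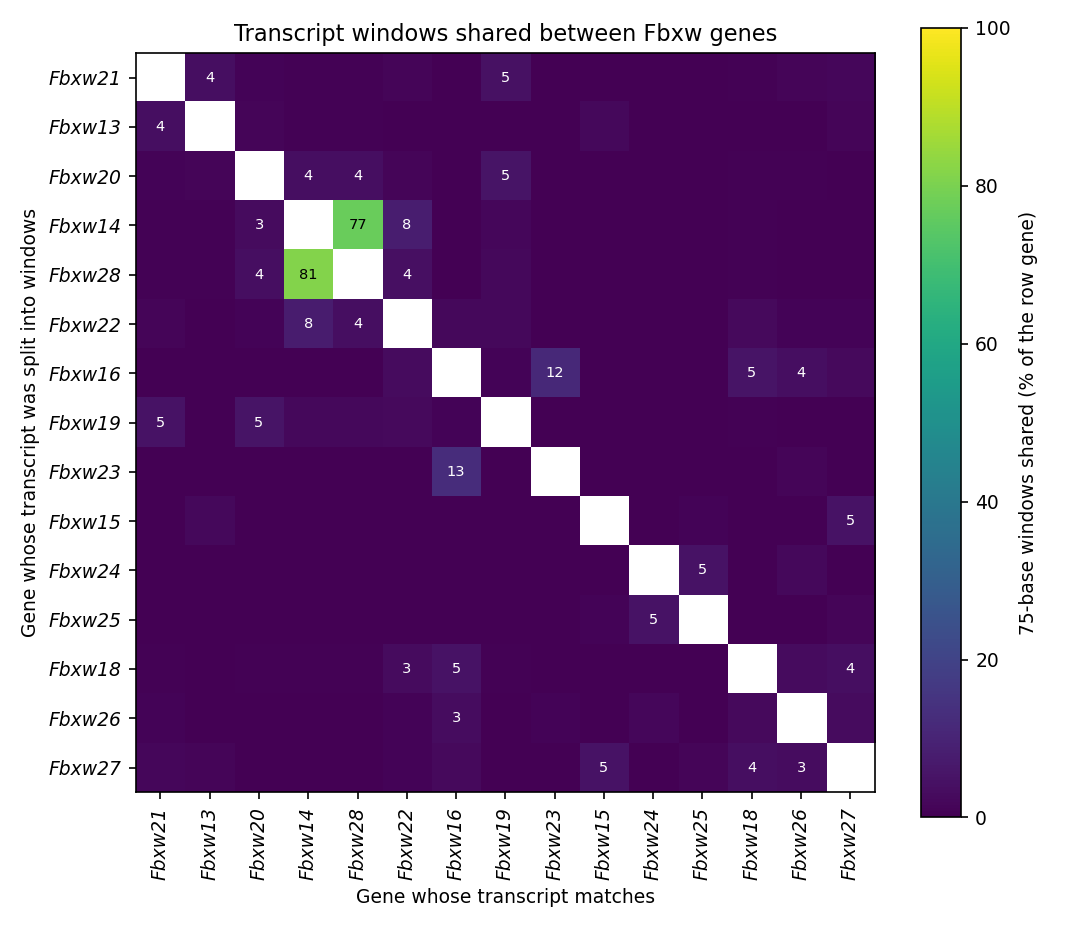
Percent of the 75-base windows of each array gene's transcript (rows) that match each other array gene's transcript (columns) with at most 1 mismatch, as colour, with the larger values printed as whole percents. Fbxw14 against Fbxw28 (77.3%) and Fbxw28 against Fbxw14 (81.4%) stand apart, and no other pair exceeds 12.6%.

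The kit keeps no strand, so where an antisense transcript overlaps a gene their reads cannot be told apart, and how such reads were counted is not given in the sources used here. Fbxw16 overlaps the antisense genes Gm42494 and Gm42493, and Fbxw15 overlaps Gm42756. The count of Gm42494 was 0.697% of that of Fbxw16 in KO libraries and 1.03% in WT libraries, and that of Gm42756 was 0.295% of that of Fbxw15 in KO libraries and 0.349% in WT libraries.

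The cluster was among the most abundant messages of these oocytes, and every one of its 10 genes had a lower mean in KO libraries than in WT libraries, by 11.7% to 31.3%. In 9 of the 10 all KO libraries lay below all WT libraries, and 7 of the 10 ranked among the 100 most abundant of the 25353 genes. Of the tested genes as a whole, 11.7% had all KO libraries below all WT libraries, and 24.0% of those with a mean of at least 1000 normalized read counts did. Levels below are normalized read counts, that is reads divided by a library scaling factor.

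Fbxw24, the most abundant, ranked 7 among all genes. It had 27974, 29831 and 32159.5 normalized read counts in the KO libraries, against 41949, 38615 and 42192 in the WT libraries. The highest KO library lay below the lowest WT library. The means were 29988 ± 2097 in KO and 40919 ± 1998 in WT (SD, n = 3 each), a log2 fold change of -0.45 (SE 0.11). Fbxw24 lies at 109601116 to 109626057.

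Fbxw15 (109552602 to 109568262) had 23743, 20508 and 20672 normalized read counts in the KO libraries, against 25580.1, 24843 and 27774 in the WT libraries. The first KO library stood close to the WT range but below it. The log2 fold change was -0.27 (SE 0.11), from means of 21641 ± 1822 in KO and 26066 ± 1524 in WT.

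Fbxw14 (109270790 to 109287676) and Fbxw18 (109676734 to 109702700) had the largest differences. Fbxw14 had 14546, 14405 and 15338 normalized read counts in the KO libraries, against 21587, 20413 and 22204 in the WT libraries. Fbxw18 had 9089, 8973 and 9592 in the KO libraries, against 13731, 12890.4 and 13612 in the WT libraries. For both genes the groups were far apart relative to their spread, with a log2 fold change of -0.54 (SE 0.10) in each. Because most windows of Fbxw14 are shared, its sum with Fbxw28 is the safer value: 36143 ± 1220 in KO and 46737 ± 1499 in WT, a log2 difference of -0.37 with no overlap.

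Fbxw16 (109432316 to 109449140) had 10869, 11202 and 12093 normalized read counts in the KO libraries, against 16687, 15834 and 15953 in the WT libraries, again without overlap. Its log2 fold change was -0.51 (SE 0.10), a mean 29.5% lower. Fbxw19 (109476654 to 109495875), the closest of the listed genes to Fbxw16 in coding sequence, had 11661, 11091 and 11894 in the KO libraries, against 14777, 14256 and 15579 in the WT libraries. Its difference was smaller, at a log2 fold change of -0.36 (SE 0.10), and the groups did not overlap.

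Fbxw21 (109139447 to 109162041), the first gene of the array by coordinate, had 11789, 10601 and 10749 normalized read counts in the KO libraries, against 14105, 14053 and 15221 in the WT libraries. The log2 fold change was -0.39 (SE 0.10). Fbxw22 (109378400 to 109404296) had 4425, 4168 and 5029.6 in the KO libraries, against 5924, 5309 and 6130.4 in the WT libraries, a log2 fold change of -0.35 (SE 0.11). In neither gene did the groups overlap, and the gap was narrower in Fbxw22.

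The smallest differences were in Fbxw20 and Fbxw13. Fbxw20 (109217432 to 109234754) had 6786, 6547 and 7039 normalized read counts in the KO libraries, against 8045, 7195 and 7838 in the WT libraries, a log2 fold change of -0.18 (SE 0.10). Its groups were separate by a narrow margin. Fbxw13 (109179227 to 109195975), the least abundant of the 10, had 1880.3, 2276 and 2480.2 in the KO libraries, against 2889.9, 2444 and 2463 in the WT libraries. Its groups overlapped, since the third KO library lay above 2 WT libraries, and the log2 fold change was -0.24 (SE 0.12).

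**Figure D3:**
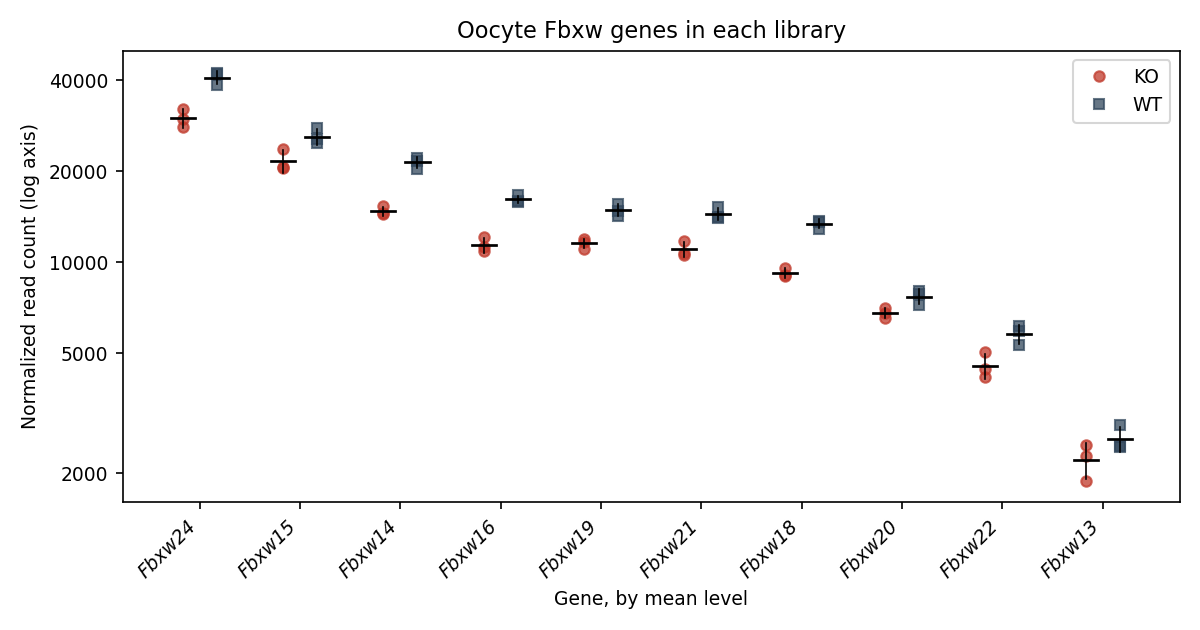
Normalized read counts (log axis) of the 10 Fbxw genes in each of the 3 KO and 3 WT libraries, with horizontal bars for group means and vertical lines for SD. KO points lie below WT points in every gene but Fbxw13, where they overlap.

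Counting error was small beside these differences. The 10 genes had 1790 to 45692 reads per library, which gives a counting error of at most 2.36%, while the coefficient of variation between libraries of a group ran from 2.86% (Fbxw16, WT) to 13.8% (Fbxw13, KO). These errors cover counting only, since reads without molecular identifiers are not independent molecules. In bulk pools, fewer cells of a type and less RNA per cell cannot be told apart.

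Per kilobase of transcript, the order of levels ran from Fbxw24, with 20153 normalized read counts per kb in KO libraries and 27499 in WT libraries, through Fbxw15, with 14476 in KO and 17435 in WT, to Fbxw13, with 1490 in KO and 1750.0 in WT. Between them Fbxw14, Fbxw16, Fbxw19, Fbxw21 and Fbxw18 lay within 6068 to 8266 in KO and 8829 to 11983 in WT, followed by Fbxw20 and Fbxw22. Fbxw19 and Fbxw21 overlapped in both groups and cannot be ordered. Fbxw14 with Fbxw16, and Fbxw16 with Fbxw19, overlapped in the KO group and not in the WT group.

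Summed, the 10 genes had 122763, 119603 and 127046 normalized read counts in the KO libraries, against 165275, 155853 and 168965 in the WT libraries. The sum was 24.6% lower in KO, a log2 difference of -0.41, and the groups did not overlap. As a share of all reads this was 1.78%, 1.71% and 1.86% in the KO libraries and 2.31%, 2.20% and 2.29% in the WT libraries. The 95% Wilson intervals for the shares ran from 1.70% to 1.86% over the KO libraries and from 2.19% to 2.32% over the WT libraries, and cover counting error only. The log2 difference of the shares was -0.35, smaller than that of the scaled counts.

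Within the sum, the shares of 4 genes did not overlap between the groups. Fbxw14 made up 11.99 ± 0.122% of the sum in KO and 13.1 ± 0.0400% in WT, and Fbxw18 made up 7.49 ± 0.0743% in KO and 8.21 ± 0.136% in WT; for both, all KO libraries lay below all WT libraries. Fbxw20 made up 5.51 ± 0.0353% in KO and 4.71 ± 0.139% in WT, and Fbxw19 made up 9.38 ± 0.113% in KO and 9.10 ± 0.145% in WT, with all KO libraries above all WT libraries. The shares of the other 6 overlapped between the groups. No matching count over all genes was made for this measure. The shares add up to the whole in each library, so lower shares of some genes raise those of others. The share of Fbxw14 is as uncertain as its level.

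Fitted with limma over 18762 genes on log2(normalized read count + 1), 5 of the 10 genes, Fbxw14, Fbxw16, Fbxw18, Fbxw21 and Fbxw24, passed an adjusted p of 0.05, all lower in KO. Over all tested genes 3.28% passed and 1.41% passed lower in KO, and 4.28% of those with a mean of at least 1000 passed lower in KO. Since the genes were chosen from this contrast, nothing is read from that count. It moved with the libraries used: leaving out KO replicate 1, 2 or 3 gave 7, 1 and 3 genes, and leaving out WT replicate 1, 2 or 3 gave 0, 2 and 0. At an unadjusted p of 0.05 it was 8 of 10 with all libraries, beside 18.0% of all tested genes, and 7 of 10 in each of the fits that gave 0. edgeR called 6 of the 10, beside 3.87% of all tested genes, and DESeq2 called 7, beside 4.92%. The median log2 fold change of the 10 was -0.38, beside -0.01 over all tested genes and -0.06 over the 1448 tested genes with a mean of at least 1000.

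Markers of other cells also differed between the libraries. Granulosa cell markers summed to 378 to 484 normalized read counts in KO libraries and 484 to 660 in WT libraries, with 2 of 8 under 5 or absent. Theca and luteal markers (3 of 5 in the table) summed to 9.45 to 54.0 in KO libraries and 17.7 to 1891 in WT libraries, highest in WT replicate 1, and immune markers (4 of 5 in the table) to 8.45 to 14.4 in KO and 23.2 to 51.0 in WT. Stroma markers summed to 7.19 to 11.6 in KO and 16.6 to 73.2 in WT, and endothelial markers to 168 to 256 in KO and 192 to 246 in WT. Single genes made up most of the granulosa sum (Cyp19a1, means 313 in KO and 404 in WT) and of the endothelial sum (Pecam1, 172 and 164). Other markers of those lists differed from them: Kdr averaged 2.65 in KO and 9.87 in WT, and Fshr 16.9 in KO and 8.64 in WT. Of these lists 2 theca and luteal markers and 1 stroma marker passed lower in KO, beside 1.41% of all tested genes. Under 5 or absent were 2 theca and luteal, 1 stroma, 1 endothelial and 2 immune markers. Without WT replicate 1 the summed Fbxw level differed by -0.40 on the log2 scale. Theca and luteal markers summed to 17.7 in WT replicate 2 and 321 in WT replicate 3, so that fit does not leave out such RNA. The part of these cells in the Fbxw difference was not tested.

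Of the 10 oocyte markers, 5 had negative log2 fold changes as well. Zp1, Zp2 and Zp3, which encode the egg coat, had log2 fold changes of -0.61, -0.66 and -0.67 (SE 0.19, 0.20 and 0.21), larger than that of any of the 10 Fbxw genes and more variable. Dppa3 (-0.29) and Ooep (-0.27), maternal factors of the early embryo, had all KO libraries below all WT libraries, as Zp1 had, while Zp2 and Zp3 overlapped. Of tested genes with a mean of at least 1000, 24.0% had all KO libraries below all WT libraries. The other 5 oocyte markers, Gdf9, Bmp15, Figla, Nobox and Ddx4, had positive log2 fold changes of 0.06 to 0.55. None of the 10 oocyte markers passed limma's adjusted threshold, beside 3.28% of all tested genes. edgeR called 0, beside 3.87%, and DESeq2 called 1, beside 4.92%. At an unadjusted p of 0.05 in limma there were 6 of 10, all but Gdf9, Bmp15, Figla and Nobox, beside 18.0% of all tested genes. Their part in the Fbxw difference was not tested.

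The 5 other genes of the array were lower in KO too, but none passed limma's test. Fbxw28 averaged 21380.3 ± 1405 normalized read counts in KO and 25336 ± 819 in WT, a log2 fold change of -0.25 (SE 0.10, adjusted p = 0.217). Of the windows of its transcript, 81.4% matched Fbxw14 with at most 1 mismatch, while the share of its reads that cannot be placed was not measured. The log2 fold changes were -0.33 for Fbxw23 (adjusted p = 0.0846), -0.38 for Fbxw25 (0.0745), -0.14 for Fbxw26 (0.488) and -0.19 for Fbxw27 (0.312). At an unadjusted p of 0.05 there were 3 of 5, beside 18.0% of all tested genes, with 0 called by edgeR and 2 by DESeq2, Fbxw23 (adjusted p = 0.0359) and Fbxw25 (0.0334). With all 15 genes the array held 2.29% of reads in KO and 2.84% in WT.

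**Figure D4:**
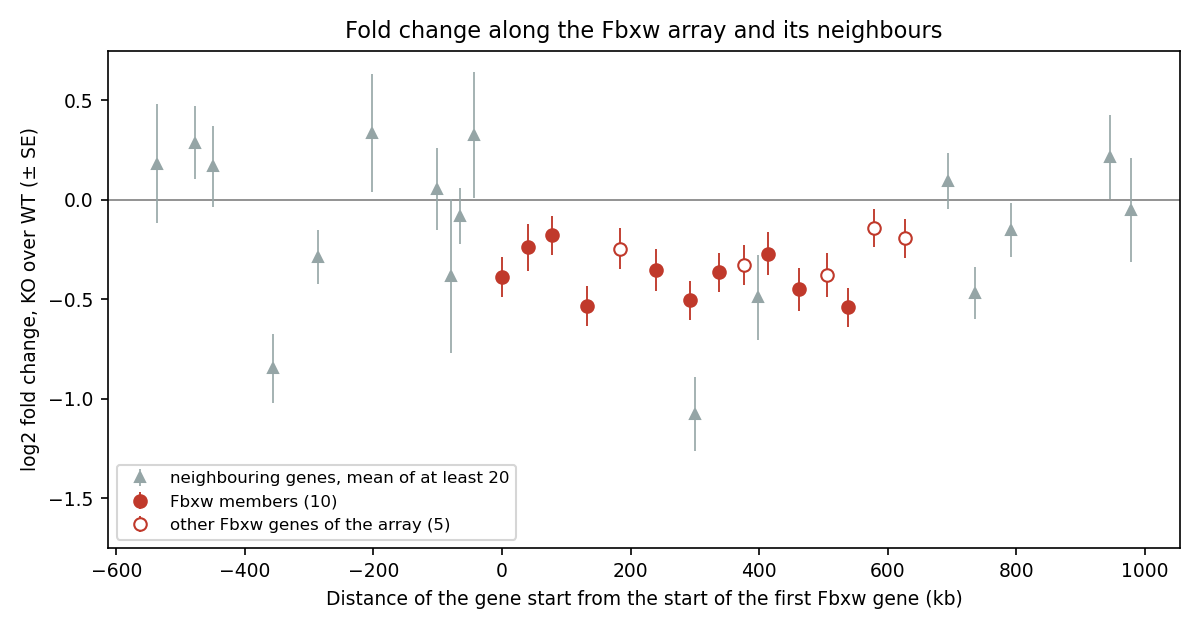
Log2 fold change (KO over WT, with SE) of the 15 array genes and of neighbouring genes with a mean of at least 20, against distance from the first Fbxw gene in kb. All 15 array genes lie below 0, while the neighbours lie on both sides.

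The genes around the array did not share one direction. Of 36 annotated neighbours outside the array, within the span of the listed Fbxw genes or 500 kb of it, 27 were tested. Their median log2 fold change was 0.05, with 13 of 27 below 0. All 27 had means under 1000 normalized read counts, while 61.3% of tested genes at or above that level were below 0. None of the 27 neighbours passed higher and 2 passed lower, beside 1.41% lower over all tested genes. Gm42494, which lies antisense within Fbxw16, fell to 79.4 ± 15.2 normalized read counts in KO, against 167 ± 12.8 in WT, a log2 fold change of -1.08 (SE 0.19, adjusted p = 0.00659). Without WT replicate 3 the adjusted p was 0.0519, and reads from the 2 strands of Fbxw16 cannot be told apart. Ip6k2, an inositol hexakisphosphate kinase, fell to 123 ± 27.2 in KO, against 219 ± 18.2 in WT (log2 fold change -0.85, SE 0.17, adjusted p = 0.0155). Its call was lost without KO replicate 3 (0.0867), WT replicate 1 (0.0749), WT replicate 2 (0.0858) or WT replicate 3 (0.0704).

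Among genes of the ligase that F-box proteins join, none of 24 tested, core subunits and regulators, passed limma's test, beside 3.28% of all genes; 6 of 24 had an unadjusted p below 0.05, beside 18.0% of all tested genes, and edgeR and DESeq2 called 0. Their median log2 fold change was -0.07, with 15 of 24 below 0. Skp1a, the adaptor, averaged 20291 ± 844 normalized read counts in KO and 20967 ± 1026 in WT (log2 fold change -0.05, SE 0.10, adjusted p = 0.863). Cul1, the scaffold, averaged 7681 ± 177 in KO and 9234 ± 513 in WT (-0.26, SE 0.10, adjusted p = 0.152), with no overlap between groups. Rbx1, the RING subunit, averaged 2644 ± 187 in KO and 2773 ± 104 in WT (-0.07, SE 0.10, adjusted p = 0.775). The genes with the smallest p were Rnf7, a second RING subunit, with a log2 fold change of 0.52 (SE 0.16, adjusted p = 0.0925, and 0.0207 without KO replicate 1), and Arih1, a ligase that works with neddylated cullins, with 0.47 (SE 0.15, adjusted p = 0.0996).

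Other F-box genes gave no common direction either. Outside the array 64 of 67 genes with F-box symbols were tested, or 63 of 66 without Fbxl12os, an antisense RNA that the symbol rule took in. With or without it the median log2 fold change was 0.04, and 3 rose and 1 fell, beside 1.87% higher and 1.41% lower over all tested genes. Most were less abundant than the Fbxw genes. Of those with a mean of at least 1000, Fbxo30, Btrc, Fbxw4, Fbxo34 and Fbxo28 were below 0, and Fbxo5 and Fbxo8 above. Of all tested genes at that level, 61.3% were below 0. Fbxo11, a receptor known for the turnover of BCL6, rose to 661 ± 108 normalized read counts in KO, against 414 ± 14.6 in WT (log2 fold change 0.66, SE 0.13, adjusted p = 0.0128). Kdm2b, which joins an F-box to a histone demethylase domain, rose to 449.9 ± 13.9 in KO, against 297 ± 32.9 in WT (0.60, SE 0.13, adjusted p = 0.0185). Fbxw11 (beta-TrCP2), a receptor for phosphorylated beta-catenin, rose to 63.2 ± 7.78 in KO, against 28.5 ± 3.66 in WT (1.12, SE 0.25, adjusted p = 0.0236). Fbxl6 fell to 795 ± 179 in KO, against 1197 ± 105 in WT (-0.61, SE 0.14, adjusted p = 0.0259).

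These 4 calls depended on single libraries. Fbxo11 lost its call without KO replicate 3 (adjusted p = 0.0623) or without WT replicate 1 (0.0772), 2 (0.0547) or 3 (0.0693). Kdm2b lost it without KO replicate 2 (0.0534) or 3 (0.0753) and without WT replicate 1 (0.095) or 3 (0.107). Fbxw11 lost it without KO replicate 2 (0.0509) or 3 (0.0872) and without WT replicate 1 (0.0981), 2 (0.07) or 3 (0.0801). Fbxl6 lost it without KO replicate 2 (0.112) or 3 (0.144) and without WT replicate 1 (0.103), 2 (0.123) or 3 (0.0858).

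**Figure D5:**
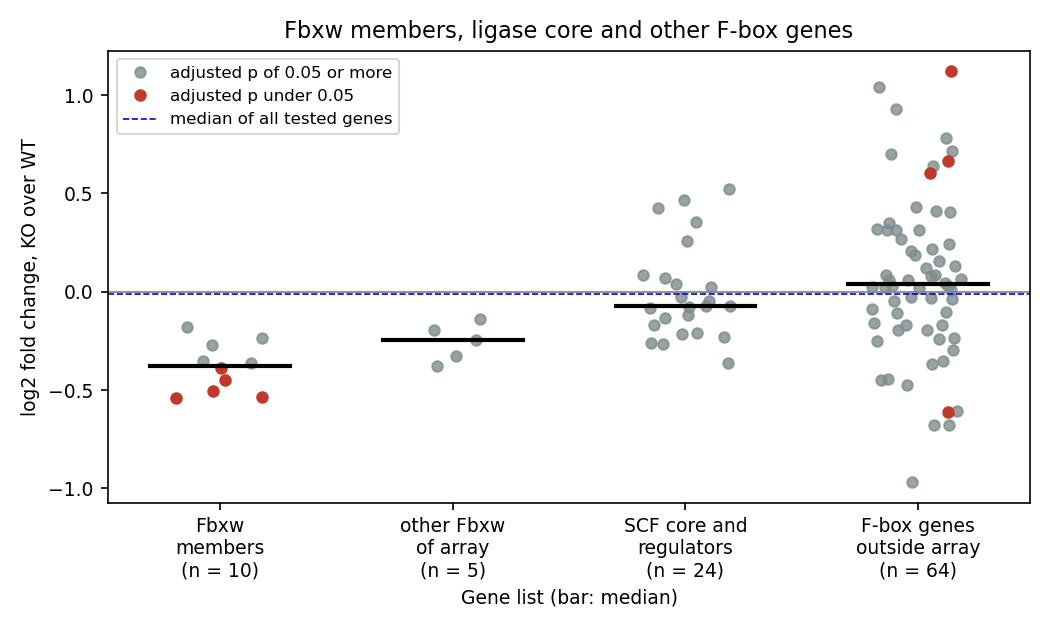
Log2 fold changes (KO over WT) of the tested genes in each list: the 10 listed Fbxw genes, the 5 other array genes, the SCF core and regulators and the genes with F-box symbols outside the array; bars are medians, the dashed line is the median of all tested genes and red points have an adjusted p under 0.05. The 10 Fbxw genes lie between -0.54 and -0.18, while the SCF genes and the F-box genes outside the array lie on both sides of 0.

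The mean profile of the 10 genes over the 6 libraries, each gene centred on its own mean of log2(normalized read count + 1), was -0.21, -0.23 and -0.13 in the KO libraries and 0.22, 0.12 and 0.23 in the WT libraries. Fbxw19 lay closest to it, with a root mean square difference of 0.0291, and Fbxw13 farthest, with 0.143. Among 11299 other genes with a mean of at least 20, the closest were Phf8 (0.0281), a histone demethylase, Unc13c (0.0293), a vesicle priming protein, the processed pseudogene Gm10689 (0.0400), Cd55 (0.0412), a complement regulator, and Syvn1 (0.0424), a ubiquitin ligase of the endoplasmic reticulum. Phf8 averaged 241 ± 8.89 normalized read counts in KO and 315 ± 15.7 in WT. The likeness rests on 6 libraries and on the same contrast.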

How the data were processed

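RNA was measured in 3 KO and 3 WT pools of oocytes. Smart-Seq2 cDNA went into Nextera XT libraries, which keep no strand, read as 75-base pairs, per the labels' protocols. The submitters' processing notes name STAR, cutadapt, FastQC, DESeq2 and DESeq, with builds mm10 and GRCm38; for versions and annotation, none is given in the sources used here. Values in the deposited table are a signal: read counts per gene that the authors divided by a scaling factor for each library. Whole reads were recovered from the deposited signal (all values whole within 0.1) and used for depth and for count tests. The design text of the plan allowed for raw counts; the table holds normalized values, so limma 3.58.1 (trend) was fitted to log2(value + 1) over 18762 of 25353 genes (those reaching a value of 1 in 3 libraries or more), two-sided, with Benjamini-Hochberg adjustment and a threshold of 0.05. edgeR 4.0.16 (quasi-likelihood, TMM) and DESeq2 1.42.0 were run on recovered reads as alternatives, with others on scaling, pseudocount, filter, replicate block and left-out libraries. The limma and edgeR steps were first tested on simulated data. Pairs of libraries of a group differed by more than counting noise (chi-square per degree of freedom 4.73 to 14.5), so none was treated as a library deposited again; this does not show that the pools came from separate mice. Shared windows were found against all GENCODE M21 transcripts, coding sequences were aligned with mafft 7.526, and promoters were taken from RefSeq.

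The genes, the lists and the tests were chosen with earlier results of these data known. The genes named are the 10 listed Fbxw genes, the other Fbxw genes of the array, in each list the 4 lowest p at most among those past the threshold, or the 2 lowest where there were none, and the 5 closest in profile. Skp1a, Cul1 and Rbx1 are named outside that rule, for their roles, after their values were seen, as are Mfn1 and Mfn2 as the genes the labels name.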

Additional observations from a re-analysis of the deposited data

How the results depend on the processing

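The direction of the 10 Fbxw genes did not depend on the processing choices tried. Under 14 alternatives all 140 recomputed log2 fold changes were below 0, from -0.57 to -0.12. The changes of filter and the replicate block return the main fold changes, and the pseudocounts hardly move counts this high. The signs under those settings were therefore fixed in advance. The scalings, count tests and left-out libraries reuse the libraries the genes were chosen on. The number past the threshold moved from 5 to 3 without a filter on low values, and to 3 with a replicate block. It was 0 to 7 with 1 library left out. The summed level moved to a log2 difference of -0.35 when scaled by the library total and ran from -0.44 to -0.38 with 1 library left out; pseudocount, filter and block give no value for it. Alternatives added after seeing the data, the sum without Fbxw14, with Fbxw28 or over all 15 array genes, gave -0.39, -0.38 and -0.37. Scaling by the library total moved the median of all genes to 0.04, from -0.01, and made 73.5% of calls higher in KO, beside 57.1%. Over all genes 615 passed, 924 with DESeq2, and 71 to 844 with 1 library left out. With 1 library left out the SCF core gave 0 to 2 calls, the other F-box genes 0 to 8 and the neighbours 0 to 4. DESeq2 gave 9 among the other F-box genes and 5 among the neighbours. In these counts both lists, the F-box genes and the neighbours, include the 5 other array genes. DESeq2 called 2 of those, Fbxw23 and Fbxw25, so they are part of both DESeq2 counts. With the replicate block 421 genes passed (246 higher, 175 lower). Same-numbered KO and WT libraries correlated at -0.14, -0.07 and -0.08 in their deviations from the group means, and no library correlated best with its own number. Deviations within a group of 3 are not independent, so these values cannot show whether same-numbered pools were handled together. Depth did not limit the Fbxw genes. The treatment of reads with several matches limits Fbxw14 and Fbxw28 most, and its effect was not tested.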
